A study of Mus musculus with 6 samples.

Results

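Molecular chaperones of mouse bone marrow monocytes were followed from day 0 to day 5 of culture with RANKL, the cytokine that turns these macrophage precursors into bone-resorbing osteoclasts. The genes are the protein-coding heat shock protein, J-domain, protein disulfide isomerase and CCT chaperonin genes, chosen by symbol. The rule took symbols starting with Hsp, Dnaj, Pdia or Cct followed by a digit from 2 to 8, left out Hspg2, and added Calr, Canx, Tcp1, Xbp1, Ddit3 and Ern1. It found 92 of the 28795 genes in the deposited table. A further 8 entries with such symbols had no protein-coding transcript and were left out. The table's coordinates match the mouse build GRCm38, and 92 of the 92 are in the GENCODE M21 annotation of that build, 76 with identical coordinates.

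Many chaperones, though not all, bind unfolded proteins and release them in cycles of ATP binding and hydrolysis, so that newly made or damaged chains can fold. HSP70 proteins work with J-domain proteins, which deliver clients and trigger ATP hydrolysis, and with nucleotide exchange factors, which reset the cycle. The ring-shaped CCT chaperonin folds actin and tubulin in the cytosol, the HSP60 and HSP10 pair folds proteins of the mitochondrial matrix, and the endoplasmic reticulum (ER) has its own HSP70, HSP90, lectin chaperones and disulfide isomerases for secreted and membrane proteins. Osteoclasts carry dense mitochondria, assemble actin rings on bone and secrete large amounts of proteases.

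The study is about Vsig4 and osteoclast formation. Each day had 3 libraries, made from primary mouse cells kept in M-CSF at 50 ng/ml, with RANKL given at 50 ng/ml. The treatment label reads RANKL on both days, and the time label separated the groups. No strain, sex or age was used here. A culture of 5 days in M-CSF alone was not analysed here, so RANKL and time in culture cannot be told apart in any difference below. The labels do not say whether the 3 libraries of a day are separate cultures or animals, so p-values measure the spread between these libraries only. In bulk RNA, fewer cells of a type and less RNA per cell cannot be told apart.

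The libraries held 64616609 to 82721513 counts over genes. Day 0 replicate 1 stood apart: 1 gene related to 18S rRNA took 4.09% of its counts, and 0.158% to 0.508% elsewhere. The label of the cells was checked against markers. The summed level of 7 monocyte and macrophage markers went from 19725 to 23212 counts per 1000000 (CPM) at day 0 down to 7571 to 8950.4 CPM at day 5, most of it Lyz2. Of these 7, 6 fell and 1, Cd68, rose (log2 difference 0.55 ± 0.08, adjusted p = 2.04e-04). The 7 osteoclast markers went from 297 to 452 CPM up to 25132 to 28126 CPM. Markers of stromal cells and osteoblasts were also abundant, at 14419 to 19831 CPM at day 0 and 10079 to 11214 CPM at day 5 summed over 10 genes, most of it Col1a1 and Col1a2. Of these 10, 8 were tested and 8 fell. The other 2, under the filter, were higher in every day 5 library, with Dcn at 1.89, 2.13 and 2.16 CPM, then 3.89, 4.92 and 4.15 CPM, and Lum at 0.340 ± 0.0374 CPM (SD, n = 3), then 0.963 ± 0.214 CPM. Lists for neutrophils, B cells, T cells, erythroid and endothelial cells summed to at most 14.6 CPM in any library. No marker found in the table was at 0 in every library. The part of changing cell makeup in the chaperone results was not tested.

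Of the 92 genes, 76 passed the filter on low values (an FPKM, the fragment count scaled for gene length and depth, that reached 1 in 3 libraries or more) and were tested. A gene was said to have risen or fallen at a Benjamini-Hochberg adjusted p under 0.05 in edgeR's quasi-likelihood test over 11908 genes. By this rule 28 of the 76 rose, 16 fell and 32 did not pass. The share called was 57.9%, against 55.5% of all genes tested, so the chaperones as a whole changed about as often as any gene. Over all genes, 26.6% rose and 28.8% fell. The log2 differences of the 76 ran from -0.79 to 1.36 with a median of 0.11, against a median of 0.00 over all genes with quartiles at -0.33 and 0.32. At least a 2-fold rise, again with the adjusted p under 0.05, was seen for 4 genes (Hspa4l, Hspd1, Hsp90aa1 and Dnajc2), and a 2-fold fall for 0. In all genes 5.84% rose and 6.47% fell by that much. The count of 0 falls was the same at an unadjusted p under 0.05 and in DESeq2 and limma. The 3 day 5 libraries all lay above the 3 day 0 libraries for 30 of the 76 and all below for 20, against 31.1% and 32.2% of all genes, or 63.3% in either direction. The counts by compartment and by list follow, with no test of either as a set. They are to be read beside the 26.6% of all genes that rose and the 28.8% that fell.

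**Figure D1:**
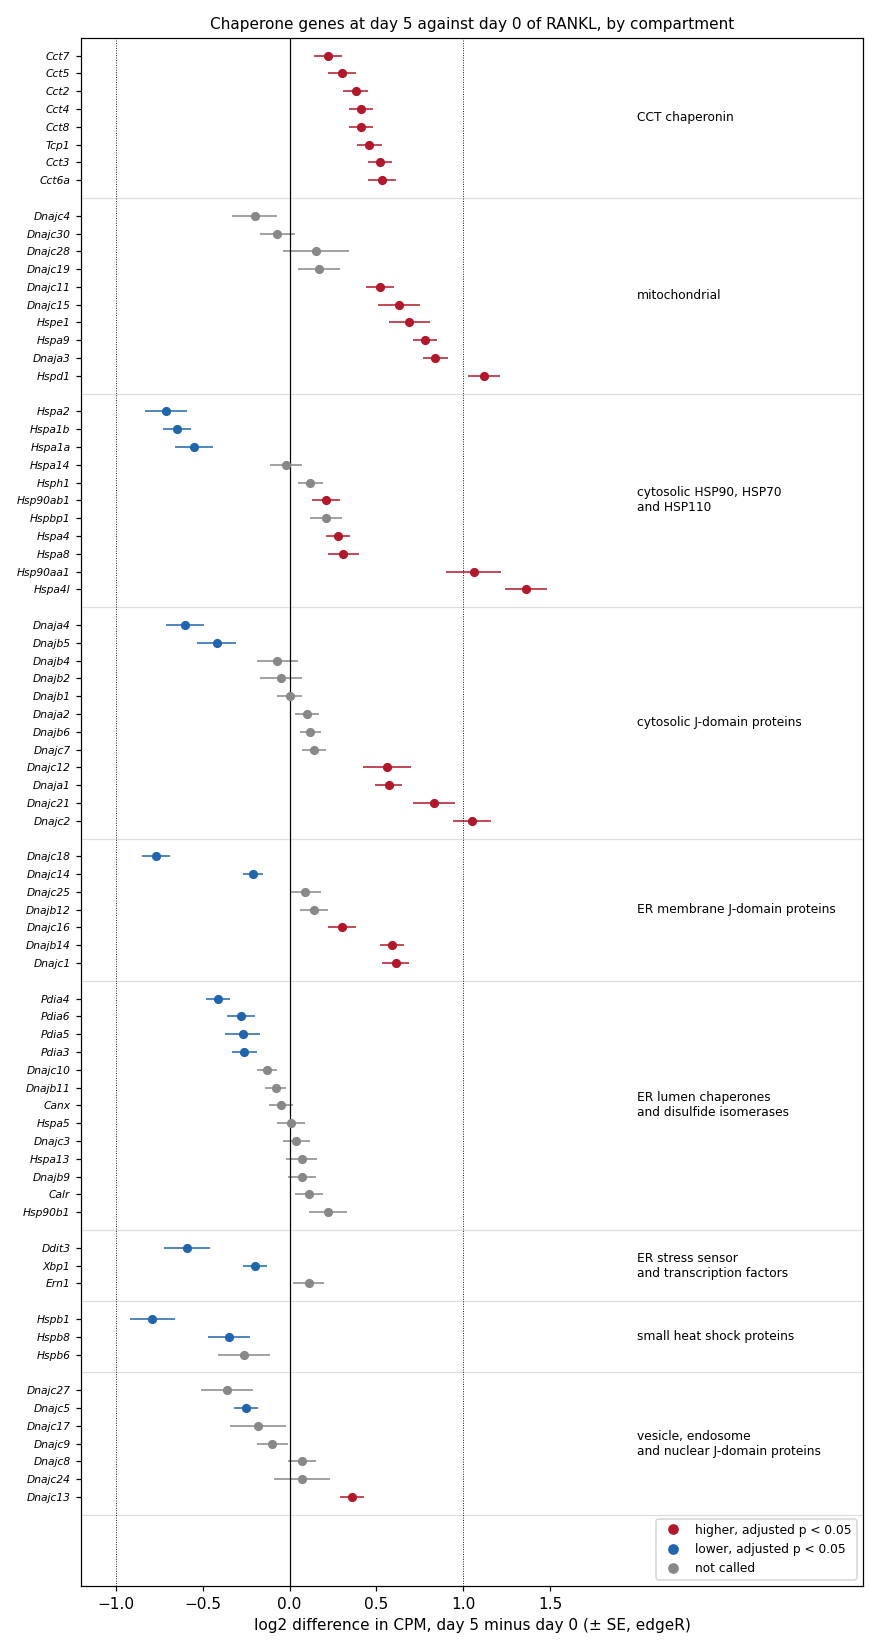
Log2 difference in CPM (x axis, day 5 minus day 0, edgeR, bars ± SE) of the 74 tested chaperone genes with a compartment, 1 row a gene, grouped by compartment. Red points rose, blue points fell, grey points did not pass the test, and dotted lines mark a 2-fold difference; all 8 CCT points lie between 0.22 and 0.53, and no ER lumen point is red.

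The CCT chaperonin rose as a block. CCT is a double ring of different but related subunits, and 8 of its subunit genes were tested. All 8 rose and 0 fell, with log2 differences from 0.22 to 0.53 and a median of 0.41. No CCT gene fell at an unadjusted p under 0.05, in DESeq2 or in limma either. Cct2, the most abundant subunit transcript by FPKM, had 343, 323 and 309.7 CPM at day 0 and 418, 429 and 419 CPM at day 5 (log2 difference 0.38 ± 0.07, adjusted p = 6.93e-04). Cct5 had 275, 272 and 234 CPM at day 0 and 321, 321 and 319 CPM at day 5 (log2 difference 0.30 ± 0.08, adjusted p = 0.00651). The days did not overlap for either gene, and the rise was 1.30-fold for Cct2 and 1.23-fold for Cct5. The largest rises were those of Cct6a (log2 difference 0.53 ± 0.08, adjusted p = 1.71e-04), Cct3 (log2 difference 0.52 ± 0.07, adjusted p = 6.47e-05) and Tcp1 (log2 difference 0.46 ± 0.07, adjusted p = 1.25e-04), the gene of the subunit CCT alpha. Cct8 (log2 difference 0.41 ± 0.07, adjusted p = 5.18e-04) and Cct4 (log2 difference 0.41 ± 0.07, adjusted p = 5.09e-04) were between these and the smallest change, Cct7 (log2 difference 0.22 ± 0.08, adjusted p = 0.0317). Cct7 no longer passed when day 0 replicate 3, day 5 replicate 1 or day 5 replicate 2 was left out. In all 8 genes every day 5 library was above every day 0 library. The spread of the subunits in level was far wider than in change: mean FPKM over the 6 libraries ran from 31.1 for Cct7 to 139.9 for Cct2, a 4.50-fold range. The other members, Cct6b and Cct8l1, were under the filter, with a highest FPKM of 0.14 and 0.03 in any library. Exons of Cct6a, Tcp1 and Cct8 overlap expressed genes on the opposite strand, Psph over 12.5%, Acat3 over 11.4% and Usp16 over 6.22% of their length, so their counts are uncertain where strand was not used.

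The listed partners of CCT and of tubulin folding did not move as a block. Of 13 prefoldin subunits, phosducin-like proteins and tubulin cofactors, 3 rose, 2 fell and 8 did not pass, with a median of 0.04. Pfdn4 (log2 difference 0.44 ± 0.15, adjusted p = 0.0278) and Vbp1 (log2 difference 0.38 ± 0.10, adjusted p = 0.00978), both subunits of the prefoldin complex, had the largest differences of those called.

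Mitochondrial chaperones had the highest median of any compartment. Of 10 genes, 6 rose, 0 fell and 4 did not pass, with a median log2 difference of 0.57 and a range of -0.20 to 1.12. No mitochondrial gene fell at an unadjusted p under 0.05, in DESeq2 or in limma. The largest rises were in the matrix folding machinery. Hspa9, the mitochondrial HSP70 that pulls proteins in through the inner membrane and folds them, had 427, 422 and 416 CPM at day 0 and 688, 713 and 765 CPM at day 5, a 1.71-fold rise (log2 difference 0.78 ± 0.07, adjusted p = 3.20e-06). Hspd1, the HSP60 chaperonin, had 222, 182 and 210.1 CPM at day 0 and 427, 437 and 477 CPM at day 5, a 2.18-fold rise (log2 difference 1.12 ± 0.09, adjusted p = 8.94e-07). For both genes the day 0 values were close together and the lowest day 5 library was far above the highest day 0 library. Hspe1, the HSP10 lid of the HSP60 chamber, had 38.8, 33.1 and 26.7 CPM at day 0 and 52.3, 51.1 and 55.9 CPM at day 5 (log2 difference 0.69 ± 0.12, adjusted p = 5.39e-04). Its day 0 libraries were more scattered, but again did not overlap those of day 5. Dnaja3, the J-domain partner of Hspa9 in the matrix, had 42.2, 43.2 and 44.2 CPM at day 0 and 75.6, 78.6 and 78.0 CPM at day 5 (log2 difference 0.84 ± 0.07, adjusted p = 1.12e-06), with no overlap between the days. Dnajc15, a J-domain protein of the inner membrane import motor (log2 difference 0.63 ± 0.12, adjusted p = 8.28e-04), and Dnajc11, which associates with the cristae-shaping complex (log2 difference 0.52 ± 0.08, adjusted p = 1.45e-04), rose as well. Dnajc19, another J-domain protein of the import motor (log2 difference 0.17 ± 0.12, adjusted p = 0.267), Dnajc28 (log2 difference 0.15 ± 0.19, adjusted p = 0.531), Dnajc30 (log2 difference -0.07 ± 0.10, adjusted p = 0.593) and Dnajc4 (log2 difference -0.20 ± 0.13, adjusted p = 0.191) did not pass. Dnajc4 was nevertheless lower in all 3 day 5 libraries than in any day 0 library.

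**Figure D2:**
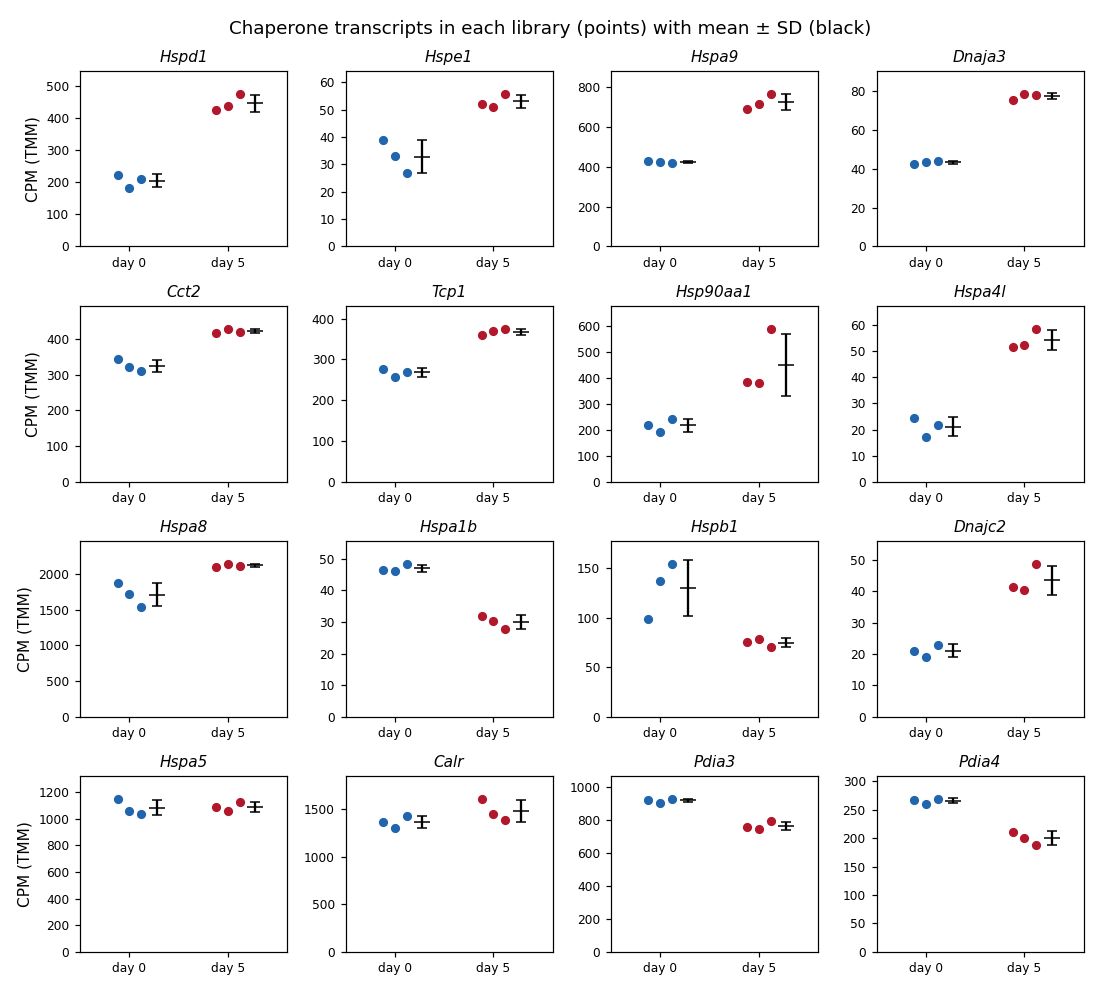
CPM scaled by TMM (y axis, from 0) of 16 chaperone genes in each library at day 0 and day 5, with mean ± SD (n = 3 a day) in black. The days are apart for the mitochondrial genes in the top row and overlap for Hspa5 and Calr in the bottom row; the day 5 library of Hsp90aa1 at 588 CPM stands above the other day 5 libraries.

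Partners of the mitochondrial chaperones moved the same way. Of 11 listed genes, 10 rose, 0 fell and 1, Clpp (log2 difference 0.25 ± 0.10, adjusted p = 0.0511), did not pass, with a median of 0.61. The list held genes for nucleotide exchange, import and matrix or inner membrane proteolysis, and also Trap1, the mitochondrial HSP90. Trap1 is itself a chaperone, which the symbol rule did not take, and it rose (log2 difference 0.70 ± 0.08, adjusted p = 2.79e-05). Timm44, which anchors Hspa9 to the import channel, rose 2.00-fold from 33.6, 32.1 and 29.3 CPM to 65.7, 62.5 and 61.7 CPM (log2 difference 1.00 ± 0.08, adjusted p = 1.32e-06). Afg3l2, a subunit of the inner membrane m-AAA protease, rose 1.73-fold (log2 difference 0.79 ± 0.06, adjusted p = 1.11e-06).

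Hspd1 and Hspe1 lie head to head on chromosome 1 and their promoter windows overlap, so the sequence is shown once, read on the Hspe1 strand. It is the RefSeq window on GRCm38.p6 from 250 bases before to 50 bases after the Hspe1 start, at chr1:55087898-55088197 (plus strand). Capitals mark the letters of a heat shock element, the inverted GAA and TTC repeats bound by heat shock factors.
Hspe1 promoter: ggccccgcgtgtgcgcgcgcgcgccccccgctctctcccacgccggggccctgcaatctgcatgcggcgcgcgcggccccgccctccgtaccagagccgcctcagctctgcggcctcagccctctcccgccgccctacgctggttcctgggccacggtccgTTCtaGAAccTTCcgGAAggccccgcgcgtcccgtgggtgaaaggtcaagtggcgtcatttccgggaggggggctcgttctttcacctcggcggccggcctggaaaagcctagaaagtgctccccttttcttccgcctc
A window of Hspd1 on the minus strand covers 285 of these bases. The motif was searched on both strands as 3 alternating GAA and TTC units set 2 bases apart, and 2 overlapping matches make up the 18 capital-bearing bases at chr1:55088059-55088076, starting 89 bases upstream of the Hspe1 start and 144 bases upstream of an Hspd1 start. Of 32851 promoter windows in the table, 0.603% hold this motif. Among the 76 chaperone genes with a window (95 windows), 4 hold it, a count by gene and not by window like the share above. Hspd1 and Hspe1 hold the same site, and the other 2 are Hsph1 and Dnajb6. Their sites, with 3 bases on each side, are set beside that of Hspe1.
Hspe1: ccgTTCtaGAAccTTCcgGAAggc
Hsph1: agaTTCtgGAAagTTCtcc
Dnajb6: cgaGAAtcTTCcgGAAcgc
The Hsph1 site is at chr5:149636288-149636300 (minus strand) and begins after the start site. The Dnajb6 site is at chr5:29735852-29735864 (plus strand). Of the 4 genes, Hspd1 and Hspe1 rose, while Hsph1 (log2 difference 0.12 ± 0.07, adjusted p = 0.177) and Dnajb6 (log2 difference 0.12 ± 0.06, adjusted p = 0.133) did not pass. Hsph1 and Dnajb6 did pass as higher in edgeR without TMM scaling. Dnajb6 had 104.5, 103.5 and 97.8 CPM at day 0 and 107.0, 110.4 and 115.0 CPM at day 5, with no overlap. No match in the other windows says only that these letters are absent there.

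In the cytosol, HSP90, HSP70 and HSP110 genes split in direction. Of 11 tested, 5 rose, 3 fell and 3 did not pass, with a median log2 difference of 0.21 and a range of -0.71 to 1.36. Those that rose were both cytosolic HSP90 genes, the constitutive HSP70 Hspa8 and the HSP110-type nucleotide exchange factors Hspa4 and Hspa4l. Those that fell were Hspa1a, Hspa1b and Hspa2. Hsp90ab1, the constitutive HSP90 and the most abundant chaperone transcript of all at a mean FPKM of 570.4, had 1657, 1569 and 1741 CPM at day 0 and 2034, 1881 and 1843 CPM at day 5 (log2 difference 0.21 ± 0.08, adjusted p = 0.0469). Hspa8 had 1876, 1720.1 and 1545 CPM at day 0 and 2102, 2143 and 2120.1 CPM at day 5 (log2 difference 0.31 ± 0.09, adjusted p = 0.0125). Both rises were small, and day 5 lay above day 0 in every library. The call on Hsp90ab1 was lost when any library other than day 0 replicate 3 was left out, and that on Hspa8 without day 5 replicate 2.

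Hsp90aa1, the stress-responsive HSP90, had 216, 190.4 and 242 CPM at day 0 and 384, 379 and 588 CPM at day 5, a 2.08-fold rise (log2 difference 1.06 ± 0.16, adjusted p = 1.62e-04). Day 5 replicate 3 was far above the other day 5 libraries, and without it the log2 difference was 0.82. The ratio of Hsp90aa1 to Hsp90ab1 in FPKM was 0.0994 ± 0.00679 (SD, n = 3) at day 0, and was 0.144, 0.154 and 0.243 in the day 5 libraries. Hspa4l had 24.3, 17.3 and 21.7 CPM at day 0 and 51.8, 52.4 and 58.7 CPM at day 5, the largest rise of all the chaperones at 2.57-fold (log2 difference 1.36 ± 0.12, adjusted p = 2.66e-06). Its level was low, with the lowest mean FPKM among the tested genes of this compartment at 3.16. Its relative Hspa4 was 45.0 FPKM on average and rose less (log2 difference 0.28 ± 0.07, adjusted p = 0.00447). The third HSP110 gene, Hsph1, did not pass except without TMM scaling.

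The stress-inducible HSP70 pair moved the other way. Hspa1a had 18.4, 19.1 and 17.4 CPM at day 0 and 13.9, 11.7 and 11.8 CPM at day 5 (log2 difference -0.55 ± 0.11, adjusted p = 0.00123), and Hspa1b had 46.4, 46.3 and 48.4 CPM at day 0 and 31.9, 30.3 and 27.7 CPM at day 5 (log2 difference -0.65 ± 0.08, adjusted p = 5.58e-05). Neither gene overlapped between the days. Hspa2, an HSP70 best known from male germ cells, fell as well (log2 difference -0.71 ± 0.12, adjusted p = 3.02e-04). Hspa14, the HSP70 of the ribosome-associated complex (log2 difference -0.02 ± 0.09, adjusted p = 0.882), and Hspbp1, a nucleotide exchange factor (log2 difference 0.21 ± 0.09, adjusted p = 0.0793), did not pass. Hspbp1 did pass in DESeq2, in both limma fits, without TMM scaling and without day 0 replicate 3 or day 5 replicate 3. Hspa12a, Hspa12b and Hspa1l were under the filter. Hspa1a and Hspa1b are near-identical copies: 48.6% and 49.9% of their 100-base transcript stretches occur in another gene (each other or Hspa1l), so how the reads were divided between them is uncertain. The same holds for 38.0% of Hsp90aa1 (pseudogenes Gm12346 and Gm5844), 28.2% of Hspa8 (Gm15459 and Gm8355) and 23.4% of Hspd1 (Hspd1-ps3 and Gm47750). Smaller shares were found for Dnajb6 (14.6%), Hspe1 (10.0%) and Dnaja1 (9.21%). Opposite-strand genes also overlap exons of Dnajc30 (Bud23, 26.2%), Hsp90b1 (1810014B01Rik, 10.3%) and Hspe1 (Hspd1, 7.60%).

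Heat shock factors and the cochaperones of HSP70 and HSP90 mostly did not pass. Of 13 genes, 4 rose, 1 fell and 8 did not pass, with a median of 0.00. Fkbp4, an HSP90-binding immunophilin (log2 difference 0.67 ± 0.06, adjusted p = 4.92e-06), and Hsf2, a heat shock factor (log2 difference 0.43 ± 0.10, adjusted p = 0.00352), had the largest differences of those called.

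Small heat shock proteins hold unfolded proteins without using ATP. Of 7 genes, 3 were tested, 2 fell, 0 rose and 1 did not pass, with a median of -0.35. None rose at an unadjusted p under 0.05, in DESeq2 or in limma. Hspb1, known as HSP25 in mouse and linked to actin dynamics, was by far the most abundant and had 98.5, 137 and 154 CPM at day 0 and 75.7, 78.5 and 70.4 CPM at day 5, 1.73-fold lower at day 5 (log2 difference -0.79 ± 0.13, adjusted p = 3.89e-04). Its day 0 libraries were scattered, and the lowest still exceeded all of day 5. A pseudogene, Hsp25-ps1, shares 44.0% of its transcript stretches. Hspb8, the partner of Bag3 in the autophagy of misfolded clients, had 17.7, 18.3 and 16.1 CPM at day 0 and 12.4, 15.8 and 12.5 CPM at day 5 (log2 difference -0.35 ± 0.12, adjusted p = 0.0286), a call that was lost without TMM scaling, without a filter and when day 0 replicate 1, day 0 replicate 2, day 5 replicate 1 or day 5 replicate 3 was left out. Hspb6 did not pass (log2 difference -0.26 ± 0.15, adjusted p = 0.18). Hspb2, Hspb3, Hspb7 and Hspb9 were under the filter, the highest of them Hspb7 at an FPKM of 1.18.

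J-domain proteins of the cytosol fell into both directions. Of 12 tested, 4 rose, 2 fell and 6 did not pass, with a median of 0.11 (0.07 without day 5 replicate 3). The share called was 50.0%, near the 55.5% of all genes tested. Dnajc2, the J-domain subunit of the ribosome-associated complex that works with Hspa14, had 21.0, 18.9 and 23.0 CPM at day 0 and 41.4, 40.3 and 48.7 CPM at day 5, a 2.07-fold rise (log2 difference 1.05 ± 0.11, adjusted p = 7.50e-06), with no overlap between the days. Its log2 difference was 0.96 without day 5 replicate 3 and 0.95 in the limma fit on log2(FPKM + 1). Dnajc21, a factor of ribosome assembly (log2 difference 0.83 ± 0.12, adjusted p = 1.26e-04), and Dnajc12, a cochaperone of aromatic amino acid hydroxylases (log2 difference 0.56 ± 0.14, adjusted p = 0.00453), rose too. The most abundant gene, Dnaja2, had 183, 176 and 175 CPM at day 0 and 186, 183 and 202 CPM at day 5 (log2 difference 0.10 ± 0.07, adjusted p = 0.236) and did not pass, although its days did not overlap. Dnaja1, like Dnaja2 a general partner of Hspa8, had 126, 113 and 129 CPM at day 0 and 179, 167 and 200.1 CPM at day 5 and rose (log2 difference 0.57 ± 0.08, adjusted p = 1.49e-04). Dnajb1, the main partner of the inducible HSP70, did not pass (log2 difference 0.00 ± 0.07, adjusted p = 0.973). Dnaja4 (log2 difference -0.60 ± 0.11, adjusted p = 6.75e-04) and Dnajb5 (log2 difference -0.42 ± 0.11, adjusted p = 0.00762) fell. Dnaja4 is uncertain, since 44.1% of its exon length overlaps Wdr61 on the other strand. Dnajb2, Dnajb4, Dnajb6 and Dnajc7 lay between -0.07 and 0.14 without passing, and Dnajb3, Dnajb7 and Dnajb13 were under the filter. Without TMM scaling Dnajb6 and Dnajc7 did pass, as did Dnajc7 in both limma fits.

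In the ER lumen no chaperone rose. Of 13 genes, all tested, 4 fell and 9 did not pass, with a median log2 difference of -0.05 (0.01 without TMM scaling and 0.02 in both limma fits) and a range of -0.41 to 0.22. The falls, 30.8% of the 13, were near the 28.8% over all genes tested, of which 26.6% rose. The count of 0 rises was also found at an unadjusted p under 0.05 and in limma, while DESeq2 called 1, Hsp90b1. Calr, the lectin chaperone calreticulin and the most abundant of them at 473 FPKM, had 1367, 1304 and 1432 CPM at day 0 and 1608, 1446 and 1386 CPM at day 5 (log2 difference 0.11 ± 0.08, adjusted p = 0.277). Hspa5, the ER HSP70 known as BiP and the standard marker of ER stress, had 1147, 1060.1 and 1038 CPM at day 0 and 1085, 1054 and 1126 CPM at day 5 (log2 difference 0.01 ± 0.08, adjusted p = 0.929). The days overlapped for both genes. Hsp90b1, the ER HSP90 known as GRP94, had 769.5, 693 and 859.6 CPM at day 0 and 846, 822 and 1036 CPM at day 5 (log2 difference 0.22 ± 0.11, adjusted p = 0.104), and passed in DESeq2 and without day 0 replicate 3 (0.33). Without day 5 replicate 3 its log2 difference was 0.11. Canx, the membrane lectin chaperone calnexin, did not pass (log2 difference -0.05 ± 0.07, adjusted p = 0.613).

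The 4 genes that fell were the 4 Pdia genes that the rule found, which encode disulfide isomerases, the enzymes that make and reshuffle disulfide bonds. Isomerase-family genes outside the rule went different ways. Txndc5 fell (log2 difference -0.36 ± 0.07, adjusted p = 0.00148). P4hb, protein disulfide isomerase itself, did not pass (log2 difference -0.18 ± 0.07, adjusted p = 0.0541). Erp44 (log2 difference 0.23 ± 0.07, adjusted p = 0.0119) and Erp29 (log2 difference 0.36 ± 0.08, adjusted p = 0.00184) rose. Pdia3, which works with calreticulin and calnexin on glycoproteins, had 925, 907 and 929 CPM at day 0 and 761, 744 and 794 CPM at day 5 (log2 difference -0.26 ± 0.07, adjusted p = 0.00705). Pdia4 had 267, 260.3 and 269 CPM at day 0 and 211, 201 and 188 CPM at day 5, 1.33-fold lower at day 5 (log2 difference -0.41 ± 0.07, adjusted p = 3.82e-04). Neither gene overlapped between the days. Pdia6 (log2 difference -0.28 ± 0.08, adjusted p = 0.0104) and Pdia5 (log2 difference -0.27 ± 0.10, adjusted p = 0.04) fell by similar amounts. The call on Pdia5 was lost in 10 of 15 alternatives, that on Pdia6 without day 0 replicate 2 or day 5 replicate 2, and that on Pdia3 without day 5 replicate 2. The J-domain partners of Hspa5 in the lumen did not pass: Dnajb9 (0.07), Dnajb11 (-0.08), Dnajc3 (0.04) and the reductase Dnajc10 (-0.13), nor did Hspa13 (0.07), all as log2 differences.

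Promoters of 6 of these genes hold the letters of the ER stress element, the kind of site through which ATF6 and XBP1 act together with NF-Y. The letters CCAAT and CCACG with 9 bases of any kind between them were found on either strand in 0.119% of 32851 windows. Of the 13 ER lumen genes 12 had a window, and 6 of them held the element, with 2 sites in Hsp90b1; no chaperone gene of another compartment held it. The Hspa5 window is shown whole, at chr2:34771840-34772139 (plus strand, GRCm38.p6), with the element in capitals at chr2:34772025-34772043, 65 bases upstream of the start.
Hspa5 promoter: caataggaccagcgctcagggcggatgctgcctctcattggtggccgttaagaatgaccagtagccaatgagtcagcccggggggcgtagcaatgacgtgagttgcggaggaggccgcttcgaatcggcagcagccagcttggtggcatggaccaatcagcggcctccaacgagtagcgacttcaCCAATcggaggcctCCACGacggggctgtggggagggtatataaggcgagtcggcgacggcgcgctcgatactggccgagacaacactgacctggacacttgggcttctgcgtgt
The 7 sites of the 6 genes are set side by side with 3 bases on each side, read on the strand that holds CCAAT first.
Hspa5: tcaCCAATcggaggcctCCACGacg
Calr: gggCCAATgagggtcgaCCACGcgt
Canx: tgaCCAATcaccacgctCCACGaag
Hsp90b1, far site: agcCCAATcgcaaggagCCACGctt
Hsp90b1, near site: tcaCCAATcgtgcctcaCCACGcac
Dnajc3: caaCCAATcagcgccaaCCACGacc
Pdia6: agaCCAATgaaaggcggCCACGgcg
They lie 47 to 212 bases upstream of the start, and the 9 bases between the capitals differ from gene to gene. The 6 genes had log2 differences of 0.01, 0.11, -0.05, 0.22, 0.04 and -0.28 in the order Hspa5, Calr, Canx, Hsp90b1, Dnajc3 and Pdia6, and only Pdia6 passed the test. The related ERSE-II (ATTGG and CCACG with 1 base between them, in 0.0365% of windows) was found in Dnajb11, and the UPR element TGACGTGG (0.676%) in Dnajc25. The C/EBP-ATF composite TGATGNAAT (0.965%), the kind of site through which Atf4 acts, was found in 0 of the 95 windows.

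Of the 3 regulators of ER stress, 2 fell and 1 did not pass. Ddit3, the transcription factor CHOP that the PERK and Atf4 branch induces, had 24.0, 26.0 and 21.6 CPM at day 0 and 14.1, 19.2 and 14.2 CPM at day 5, 1.51-fold lower at day 5 (log2 difference -0.59 ± 0.13, adjusted p = 0.00282). Xbp1, whose messenger RNA is spliced by the sensor Ern1 into the form that makes the active factor, had 150.1, 150.2 and 139 CPM at day 0 and 127, 133 and 122 CPM at day 5 (log2 difference -0.20 ± 0.07, adjusted p = 0.0233). The days did not overlap for either gene, but the call on Xbp1 was lost in 8 of 15 alternatives. Gene counts do not separate spliced from unspliced Xbp1. Ern1, also called IRE1 alpha, did not pass (log2 difference 0.11 ± 0.09, adjusted p = 0.296).

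Other genes of the unfolded protein response were divided. Of 12 sensors and targets 4 rose, 4 fell and 4 did not pass, with a median of -0.02. Over all genes tested 26.6% rose and 28.8% fell, so this division was near that of any genes. Ppp1r15a, the GADD34 subunit that reverses the translation block, rose 2.25-fold, from 32.2, 35.3 and 36.3 CPM to 79.4, 80.3 and 73.8 CPM (log2 difference 1.17 ± 0.08, adjusted p = 2.76e-07). Atf4, the factor whose translation rises under that block, rose 1.50-fold in transcript (log2 difference 0.59 ± 0.07, adjusted p = 4.10e-05). So Atf4 rose while Ddit3 fell. Among the 4 that fell were Sdf2l1, a partner of Hspa5 in the lumen (log2 difference -0.56 ± 0.11, adjusted p = 8.99e-04), and Hyou1, the HSP110 of the ER (log2 difference -0.38 ± 0.08, adjusted p = 0.00173), both named after their values were seen. In ER-associated degradation 2 of 11 tested genes rose and 6 fell, with a median of -0.29. Edem1, a lectin that steers misfolded glycoproteins to degradation, rose (log2 difference 0.62 ± 0.06, adjusted p = 9.63e-06), while its relative Edem2 fell (log2 difference -0.39 ± 0.10, adjusted p = 0.00445). In oxidative and other ER folding 3 of 10 rose and 3 fell, with a median of 0.08. Ero1lb, which reoxidises the disulfide isomerases, rose (log2 difference 0.77 ± 0.08, adjusted p = 8.41e-06), and Uggt1, the glycoprotein folding sensor, fell (log2 difference -0.38 ± 0.08, adjusted p = 0.00141).

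Collagen folding was the ER list that fell most often. Of 8 genes 7 fell, 0 rose and 1 did not pass, with a median of -0.45. Plod1, a lysyl hydroxylase (log2 difference -0.62 ± 0.07, adjusted p = 2.64e-05), and Fkbp10, a collagen prolyl isomerase (log2 difference -0.61 ± 0.08, adjusted p = 5.50e-05), had the largest falls. These transcripts are typical of collagen-making cells, and Col1a1 went from 7541 ± 1720.3 CPM (SD, n = 3) to 4554 ± 365 CPM (log2 difference -0.73 ± 0.15, adjusted p = 0.00168). The stromal markers as a list had a median of -0.69. The part of stromal RNA in the falls of the 4 Pdia genes, Hspb1 and the collagen list was not tested.

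J-domain proteins of the ER membrane, which face the cytosol or the lumen, again went both ways. Of 7 tested, 3 rose, 2 fell and 2 did not pass, with a median of 0.14. Dnajb12, the most abundant of them and a factor of ER-associated degradation, had 61.5, 60.1 and 65.7 CPM at day 0 and 74.4, 70.0 and 61.5 CPM at day 5 (log2 difference 0.14 ± 0.08, adjusted p = 0.183), with overlap. Its close relative Dnajb14 rose (log2 difference 0.59 ± 0.07, adjusted p = 2.87e-05). Dnajc14, a factor of receptor export, had 92.2, 90.1 and 86.9 CPM at day 0 and 77.8, 75.5 and 78.7 CPM at day 5 (log2 difference -0.21 ± 0.06, adjusted p = 0.0124). It did not overlap between the days, but its call was lost in both limma fits, without TMM and in 3 of the 6 fits that left out a library, and Ormdl2 overlaps 17.0% of its exons on the other strand. Dnajc1, which binds ribosomes at the ER membrane (log2 difference 0.61 ± 0.08, adjusted p = 6.87e-05), and Dnajc16 (log2 difference 0.30 ± 0.08, adjusted p = 0.00902) rose. Mllt10 overlaps 6.43% of the exons of Dnajc1 on the other strand. Dnajc18 fell 1.70-fold (log2 difference -0.77 ± 0.08, adjusted p = 1.38e-05), the largest fall of the compartment. Dnajc25 did not pass (log2 difference 0.09 ± 0.09, adjusted p = 0.437), and Dnajc22 was under the filter.

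The remaining J-domain proteins were grouped by hand under vesicles, endosomes and the nucleus, without a check of each. Of 7 tested, 1 rose, 1 fell and 5 did not pass, with a median of -0.10 (0.07 at an FPKM of at least 5). Dnajc8, which is found with the spliceosome, had 110.1, 106 and 97.6 CPM at day 0 and 103, 106 and 121 CPM at day 5 (log2 difference 0.07 ± 0.08, adjusted p = 0.472), and its days overlapped. Dnajc5, the cysteine string protein of exocytic vesicles, had 178, 177 and 177 CPM at day 0 and 153, 156 and 138 CPM at day 5 and fell (log2 difference -0.25 ± 0.07, adjusted p = 0.00824). Dnajc13, the endosomal protein RME-8, rose (log2 difference 0.36 ± 0.07, adjusted p = 0.00135). Dnajc9, a histone chaperone (log2 difference -0.10 ± 0.09, adjusted p = 0.341), Dnajc24, which serves diphthamide synthesis (log2 difference 0.07 ± 0.16, adjusted p = 0.752), Dnajc17 (log2 difference -0.18 ± 0.16, adjusted p = 0.353) and Dnajc27 (log2 difference -0.36 ± 0.15, adjusted p = 0.0652) did not pass. Dnajc5b and Dnajc6 were under the filter. Hspb11, given no compartment and a protein of intraflagellar transport despite its name, had 5.56, 4.50 and 4.82 CPM at day 0 and 5.32, 6.02 and 6.56 CPM at day 5 and did not pass (log2 difference 0.27 ± 0.16, adjusted p = 0.182). Hspbap1 was under the filter.

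Summed over members, the share of chaperone RNA was higher at day 5 in some compartments and overlapped or was lower in others. As a share of all FPKM in a library, the 92 genes made up 1.24%, 1.27% and 1.35% at day 0 and 1.42%, 1.38% and 1.44% at day 5. Mitochondrial genes held 0.0752%, 0.0746% and 0.0784% at day 0 and 0.127%, 0.130% and 0.140% at day 5, 1.74-fold more on average. That share was set mostly by Hspa9 and Hspd1, at mean FPKM of 127.6 and 118.8 over all libraries. CCT held 0.157%, 0.158% and 0.156%, then 0.199%, 0.201% and 0.206%. For both compartments every day 5 library was above every day 0 library. The cytosolic HSP90, HSP70 and HSP110 genes held 0.345%, 0.346% and 0.369%, then 0.428%, 0.410% and 0.429%, a share set mostly by Hsp90ab1 and Hspa8. ER lumen genes held the most on both days. They held 0.514%, 0.524% and 0.572% at day 0 and overlapped with 0.522%, 0.495% and 0.524% at day 5. Small heat shock proteins held 0.0338%, 0.0482% and 0.0555%, then 0.0270%, 0.0284% and 0.0252%, a share set almost wholly by Hspb1. These are sums with no test.

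**Figure D3:**
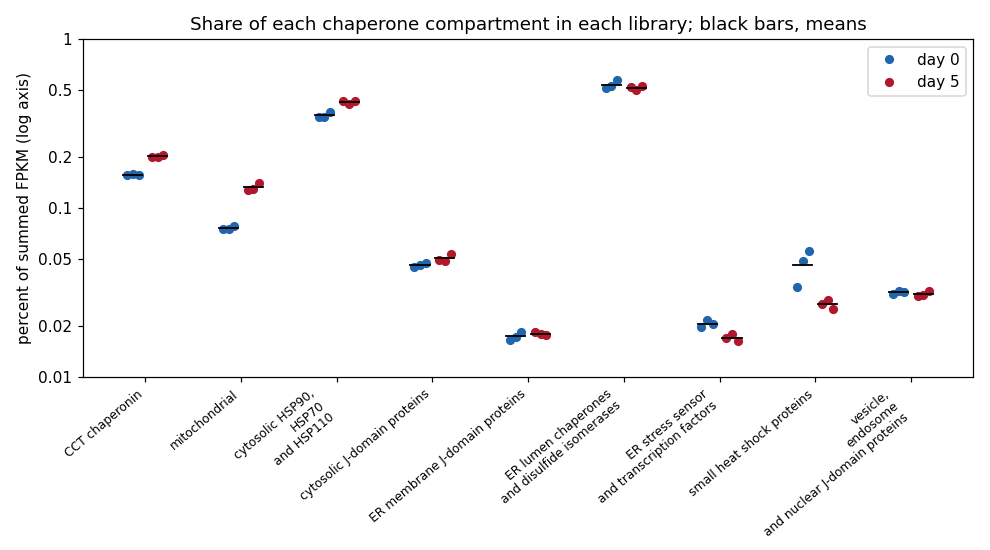
Percent of each library's summed FPKM (y axis, log scale) held by 9 chaperone compartments, 1 point a library, blue for day 0 and red for day 5, with bars at the means. Mitochondrial and CCT points are apart between the days, at 0.0761% against 0.132% and 0.157% against 0.202% on average, and ER lumen points overlap.

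Compared within the same library, the balance between mitochondrial and ER chaperones moved. The FPKM ratio of Hspd1 to Hspa5 was 0.310, 0.275 and 0.324 at day 0 and 0.629, 0.664 and 0.678 at day 5. That of Hspa9 to Hspa5 was 0.365, 0.391 and 0.393, then 0.623, 0.664 and 0.667. Hspa8 to Hspa5 moved less, from 1.61, 1.60 and 1.46 to 1.91, 2.00 and 1.85. In each of the 3 ratios every day 5 library was above every day 0 library. Within the chaperonin pair, Hspd1 to Hspe1 was 3.20, 3.08 and 4.39 at day 0 and 4.56, 4.78 and 4.76 at day 5, so day 0 replicate 3 was close to the day 5 values.

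**Figure D4:**
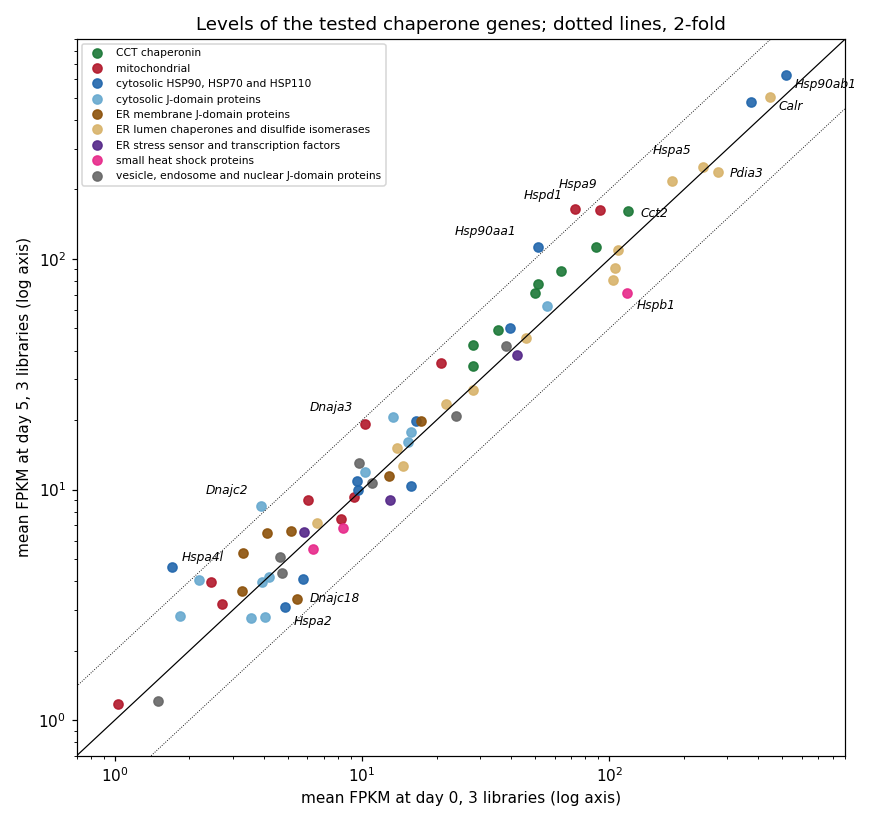
Mean FPKM at day 5 (y axis, log scale) against mean FPKM at day 0 (x axis, log scale), n = 3 libraries a day, for the 74 tested chaperone genes with a compartment, coloured by compartment. The solid line marks equal levels and the dotted lines a 2-fold difference; Hspd1, Hsp90aa1, Hspa4l and Dnajc2 reach the upper dotted line, and the most abundant genes, Hsp90ab1 and Calr, lie near the solid line.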

How the data were processed

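Poly(A) RNA of the 6 libraries was sequenced as read pairs from dUTP-marked, strand-keeping libraries, per the labels' protocols. Per the submitters' processing notes, the tools were HISAT2, StringTie, fastp and edgeR, and the build was GRCh38, a human assembly, whereas the gene identifiers and coordinates are those of mouse GRCm38. The handling of strand and of shared reads in counting was not given in the sources used here. The authors deposited whole-number counts per gene, not normalized, and FPKM values, which they scaled for gene length and depth, per the file headers.

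Counts were tested with edgeR 4.0.16 in R 4.3.3 by the quasi-likelihood test after TMM scaling, day 5 against day 0, on the 11908 genes whose FPKM reached 1 in 3 libraries or more. CPM values are TMM-scaled. P-values were adjusted by Benjamini-Hochberg over all genes tested, and each log2 difference is given ± its standard error (SE), with n = 3 libraries a day. The common biological coefficient of variation was 0.117. Libraries of 1 day differed by more than sampling noise (smallest chi-square per degree of freedom 22.9). On simulated counts for 11908 genes the test found 93 of 100 differences with a log2 size of 1 and 46 of 100 with a size of 0.5. It made 10 false calls. Only 100 genes of each size were changed there, against 6608 called in the data. The shares found therefore do not carry over, and how many differences were missed in the data was not measured.

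Chaperone genes were assigned to compartments by hand. For 3 genes that the table of compartments had not held, none was assigned; 1 of them is counted among the totals and not reported here. Named with values were genes with a 2-fold call, the up to 4 most abundant of each compartment and the up to 3 called ones with the largest difference, and every other gene given a value, apart from the up to 2 called genes of each list with the largest difference, was named after its values were seen. The members, the compartments, the lists and the motifs were chosen with earlier results of these data known. Motifs were searched in RefSeq promoter windows (GRCm38.p6), and 76 of the 92 genes had one. Copies were sought as 100-base stretches of GENCODE M21 transcripts shared with other genes. Protein sequences were not used here. Alternatives were DESeq2 1.42.0, limma 3.58.1 on log2(FPKM + 1) and log2(FPKM + 0.1), edgeR without TMM, other filters, a robust fit, a replicate block and leaving out each library. Figures were drawn with matplotlib 3.10.9.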

Additional observations from a re-analysis of the deposited data

How the results depend on the processing

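Of the 44 chaperone genes that passed, 35 kept their call in every alternative in which they were tested, and 26 of the 32 others passed in none. The number that rose was 22 to 32 and the number that fell 12 to 16 over the alternatives that kept all libraries. Leaving out 1 library gave 25 to 29 and 11 to 15. Without day 0 replicate 1, the library rich in 18S-related counts, 27 rose and 12 fell. Genes that rose 2-fold numbered 3 to 5 and genes that fell 2-fold 0 in every alternative. The median of all genes moved by at most 0.06 under another scaling. Genes with a 2-fold call over the whole table numbered 1465, against 964 in limma on log2(FPKM + 1), 2303 without a filter, 2366 with filterByExpr and 839 at an FPKM of at least 5, where fewer or more genes were tested in the last 3. No result reversed in sign among those called. Compartment medians that moved by more than the spread they were held against were these. The ER lumen median of -0.05 was 0.02 in both limma fits and 0.01 without TMM, and -0.08 to 0.00 when a library was left out. The cytosolic HSP90, HSP70 and HSP110 median of 0.21 was 0.26 in limma on log2(FPKM + 0.1), and 0.14 to 0.26 when a library was left out. The cytosolic J-domain median of 0.11 was 0.17 in that fit and without TMM, and 0.07 to 0.14 when a library was left out. The mitochondrial median of 0.57 was 0.70 at an FPKM of at least 5, where fewer genes were tested. The vesicle, endosome and nuclear median of -0.10 was 0.07 at an FPKM of at least 5, and -0.12 to -0.01 when a library was left out. The ER membrane median of 0.14 was 0.12 to 0.21 when a library was left out. Where no construction is named, the cause was not tested. Same-numbered libraries did not deviate together (correlations of -0.073, 0.147 and 0.026), so the numbers were not taken to pair them. With the replicate block, 28 chaperone genes rose and 16 fell, Hsp90ab1 no longer passed (log2 difference 0.21) and Hsp90b1 did (0.22), and 6672 genes were called in all against 6608. Each day has 3 libraries, which limits what small differences the test can show, and genes near an FPKM of 1 rest on few counts.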
